A study of Homo sapiens with 24 samples.

Results

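The NDUFS6 overexpression experiment in SH-SY5Y, a human neuroblastoma cell line, was made up of 6 of the 24 RNA sequencing libraries of the study. The members were the 3 libraries whose labels give SH-SY5Y with NDUFS6 overexpression and the 3 libraries labelled as the control for that overexpression. The overexpressing cells carried a lentiviral vector with the full coding sequence of human NDUFS6, and the control cells carried the corresponding empty vector. All 6 cultures had been exposed to virus with polybrene at 5 µg/mL for 16 h and selected with puromycin at 2 µg/mL from 48 h after infection for about a week. They had been grown in Minimum Essential Medium with fetal bovine serum. Neither the promoter of the vector nor the number of clones behind each line is given in the sources used here. The study also holds NDUFS6 knockdown cells of SH-SY5Y, made with a short hairpin RNA vector, with an empty vector control of their own, and the same 4 kinds of library for SK-N-BE(2), a second neuroblastoma line. The empty vector cells of the SH-SY5Y knockdown are called the other control below, because they give a further reading of SH-SY5Y cells with no NDUFS6 construct.

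NDUFS6 encodes an accessory subunit of respiratory complex I, the NADH dehydrogenase of the inner mitochondrial membrane. It sits in the peripheral arm near the iron-sulfur clusters, binds zinc, and enters the complex late in assembly, when the module that takes electrons from NADH joins the rest. Complex I passes electrons from NADH to ubiquinone and pumps protons, so it sets the balance of NADH and NAD+ and feeds ATP synthesis. SH-SY5Y cells are of sympathoadrenal origin and have no amplification of MYCN, while in SK-N-BE(2) cells MYCN is amplified.

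The expression values were FPKM, fragment numbers scaled for gene length and library size. A gene was tested when it reached 1 FPKM in at least 3 of the 6 libraries, which held for 13630 genes. Differences were taken on log2(FPKM + 1), so those of genes near 1 FPKM are understated, and a gene was called when the limma p-value adjusted over all tested genes was under 0.05. The 6 libraries held 13232 to 13704 genes at 1 FPKM or more and their FPKM summed to 249708 to 259548. Read counts per library are unknown, so precision was judged from how far the 3 libraries of each group lay apart. Libraries of a group correlated at r = 0.989 to 0.991 over all tested genes and libraries of the 2 groups at 0.974 to 0.977, as a description across genes. Mitochondrially encoded genes took 27.5% to 29.2% of the summed FPKM in the overexpressing libraries and 29.9% to 30.6% in the controls, a difference of -2.02 percentage points (exact permutation test, two-sided p = 0.1, the smallest that 3 against 3 libraries can give). Control replicate 2 stood apart in ribosomal RNA, at 0.177% of the sum against 0.00922% to 0.0313% in the other 5 libraries. The adrenergic markers HAND2, GATA3, ISL1, PHOX2A, DBH and TH summed to 731 to 781 FPKM in the overexpressing and 789 to 807 FPKM in the control libraries, while TH, the enzyme that starts catecholamine synthesis, stayed under 1 FPKM in all 6. No marker of immune cells (12 markers) or epithelium (9 markers) reached the threshold for testing. In bulk RNA, fewer cells of a kind and less RNA per cell cannot be told apart.

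NDUFS6 itself separated the groups by far. The gene (ENSG00000145494) lies on chromosome 5 at 1801400 to 1816605 of hg38, on the plus strand. It stood at 214, 211 and 199 FPKM in the overexpressing libraries, and at 10.2, 11.5 and 11.2 FPKM in the control libraries. The groups did not overlap, and the difference was 4.13 ± 0.12 on the log2 scale (SE, limma adjusted p = 3.7e-15), a 19-fold ratio of the mean FPKM. The other control was at 11.2, 11.1 and 12.1 FPKM, so the 2 control groups of the line had like levels. These values do not separate RNA of the native gene from RNA of the construct, which carries the coding sequence alone and is scaled here by the length of the native gene. In SK-N-BE(2) the libraries labelled as overexpressing reached 14.9, 17.8 and 19 FPKM against 11.8, 13.9 and 12.7 FPKM in their controls, a log2 difference of 0.39. The effect on NDUFS6 was larger in SH-SY5Y by 3.73 (limma adjusted p = 1e-11).

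Beyond NDUFS6, many genes moved by a small amount. Of the other 13629 tested genes, 4911 were called, which is 36% of them. Of these, 2420 (17.8%) were higher and 2491 (18.3%) lower in the overexpressing cells. The median size of a called difference was 0.30 on the log2 scale, and 83.5% of the called genes differed by less than 0.5. On the scale of log2(FPKM + 1), 56 genes (0.411%) were called and changed at least 2-fold, 21 higher and 35 lower. This number was 256 with a pseudocount of 0.1 and 178 after TPM scaling, where low values are damped less. When the test was restricted to genes with a mean of at least 5 FPKM, 60.7% of the calls were higher, against 49.3% over all tested genes, and 57.8% were higher after TPM scaling. The median difference over all tested genes was 0.00 on the log2 scale and was 0.03 under both of these settings.

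A check on the base line comes from the 2 empty vector groups, which differed from each other as well. The overexpression control and the other control of SH-SY5Y differed in 5073 of the 13629 genes (37.2%), 157 of them at least 2-fold (1.15%). The overexpression control was higher in 20.5% and lower in 16.7% of the genes. Against the other control, the overexpressing cells differed in 7856 genes (57.6%), 30.5% higher and 27.2% lower, of which 481 changed at least 2-fold (3.53%). The second comparison shares the overexpressing libraries with the first, so it gives a second reading of the same 3 libraries and not an independent repeat. Of the 56 genes that changed at least 2-fold against their own control, 42 were called in the same direction against the other control and 1 was called in the opposite direction. In a principal component analysis of the 12 SH-SY5Y libraries, the first component (61.0% of the variance) set the knockdown libraries apart, at -49.5 to -47.5. It placed the overexpressing libraries at 22.7 to 23.2, their own controls at 21.8 to 22.4 and the other controls at 2.6 to 3.6. The second component (21.6%) placed the overexpressing libraries at 21.4 to 22, their own controls at -4.6 to -1.8 and the other controls at -26.2 to -25.2. The controls made for the overexpression thus lay between the overexpressing cells and the other controls on the second component. On the first they lay close to the overexpressing cells and away from the other controls. For each gene list, the counts against the other control follow those against the own control and are read against its background of 30.5% higher and 27.2% lower.

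**Figure D1:**
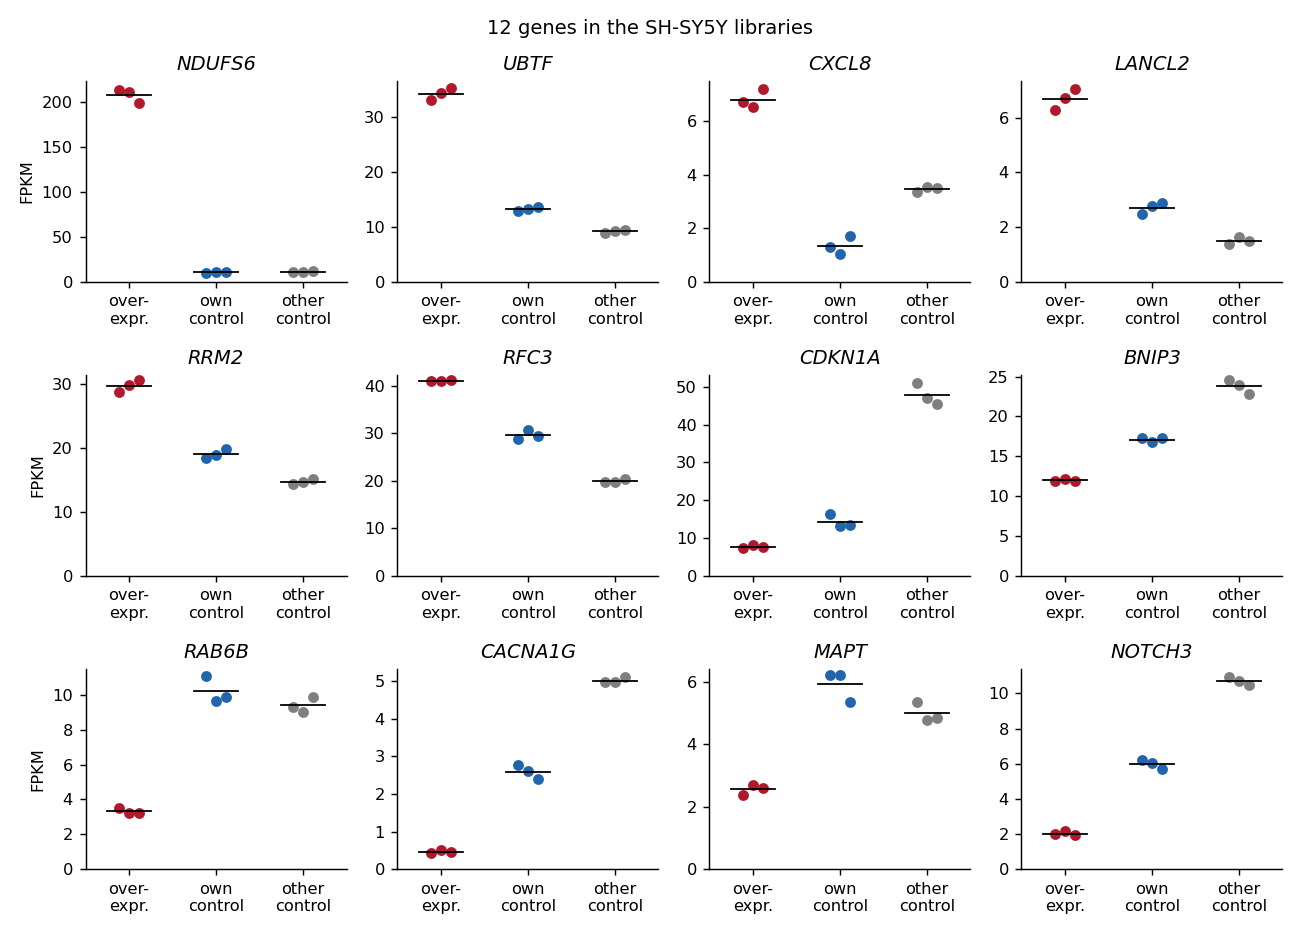
FPKM of 12 genes in each library of the overexpressing cells (red), their own empty vector control (blue) and the other control of SH-SY5Y (grey); each point is a library and the line is the mean of 3. NDUFS6 stands at 199 to 214 FPKM in the overexpressing libraries and at 10.2 to 12.1 FPKM in all 6 control libraries, and in the other 11 panels the overexpressing libraries do not overlap with either control.

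The largest rises held a ribosomal DNA transcription factor, secreted inflammatory proteins and several long noncoding RNAs. UBTF (chromosome 17, 44205033 to 44221626, minus strand), the factor that keeps ribosomal DNA open and recruits RNA polymerase I, was at 33.2, 34.5 and 35.3 FPKM against 12.9, 13.3 and 13.6 in the controls. That is a rise of 1.31 ± 0.05 (SE, limma adjusted p = 3.6e-13), and it was 1.79 against the other control, where UBTF was at 8.84, 9.31 and 9.53 FPKM. LANCL2, a membrane-associated protein of the lanthionine synthetase-like family, was at 6.30, 6.74 and 7.06 FPKM against 2.47, 2.76 and 2.90, a rise of 1.05 that was 1.62 against the other control. RGS7, which speeds the shut-off of G protein signals in neurons, stood at 8.36, 7.27 and 7.36 FPKM against 2.70, 3.21 and 3.05, a rise of 1.12 (1.62 against the other control). For these 3 genes the overexpressing libraries lay above all 6 control libraries.

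Among further rises, some depended on the control and others did not. CXCL8, the neutrophil-attracting chemokine interleukin 8, was at 6.72, 6.52 and 7.2 FPKM against 1.32, 1.02 and 1.70, a rise of 1.75 ± 0.10 (limma adjusted p = 2.9e-10). It stayed higher against the other control, by 0.81. PTX3, a secreted pattern recognition protein, was at 9.10, 9.34 and 10.1 FPKM against 2.45, 1.86 and 2.83, a rise of 1.65, but the other control held 13.3, 14 and 12.3 FPKM and the difference from it was -0.43. IGFBP3, a secreted binding protein of insulin-like growth factors, was at 8.39, 9.24 and 10.1 FPKM against 2.5, 3.15 and 2.68, a rise of 1.44, and 0.05 against the other control. GREM1, a secreted antagonist of bone morphogenetic proteins, rose by 1.17 and SAMD11 by 1.23 against their own control, while their differences from the other control were -0.10 and -0.12 and were not called. Among the noncoding RNAs, AC005828.4 rose by 1.60, AC010931.2 by 1.19, AC012307.1 by 1.20 and AC010809.1 by 1.15, with 2.92, 2.20, 1.08 and 1.61 against the other control. The rows named Six3os1_1 and Six3os1_2 rose by 1.25 and 1.13 (1.73 and 1.86). Both TOMM6 and AC022336.2 were uncertain. TOMM6, a small subunit of the outer membrane translocase that shares its strand with AL365205.1, spread from 1.29 to 13.3 FPKM in the controls, and its rise of 3.09 had an SE of 1.15. Its adjusted p was 0.043 with limma, and without control replicate 2 it was 0.15. AC022336.2 was near 0 in 2 control libraries and at 5.83 FPKM in control replicate 3.

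The largest falls held genes of neuronal membrane traffic, excitability and Notch signalling, and a group of long noncoding RNAs on chromosome 21. RAB6B (chromosome 3, 133824239 to 133895836, minus strand), a small GTPase of Golgi traffic found mainly in neurons, was at 3.49, 3.25 and 3.23 FPKM against 11.1, 9.61 and 9.87 in the controls, a fall of 1.37 ± 0.08 (SE, limma adjusted p = 8.9e-11). The other control was at 9.30, 9 and 9.85 FPKM, and RAB6B fell by 1.26 against it. CACNA1G, the pore subunit of a T-type calcium channel, was at 0.429, 0.505 and 0.449 FPKM against 2.76, 2.62 and 2.39, and fell by 1.3. The other control held 4.97, 4.97 and 5.09 FPKM. NOTCH3, a Notch receptor, was at 1.99, 2.15 and 1.94 FPKM against 6.24, 6.06 and 5.70 and fell by 1.21 (by 1.95 against the other control). ZCCHC24, a zinc finger protein, fell by 1.29, STON1, an endocytic adaptor, by 1.34, PIK3CD, the delta catalytic subunit of phosphoinositide 3-kinase, by 1.22, and the kinesin KIF21B by 1.20. Compared with the other control these 4 fell by 1.87, 2.17, 1.63 and 1.59. All 7 of these genes were lower in each overexpressing library than in any control library of either kind.

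On chromosome 21, 3 neighbouring noncoding RNA genes fell together. AP001065.1 (44485577 to 44490288) was at 4.43, 5.54 and 5.26 FPKM against 21.7, 18.7 and 20.9, TSPEAR-AS1 (44506807 to 44516575) at 2.33, 2.73 and 2.06 against 11.8, 9.72 and 9.89, and TSPEAR-AS2 (44517216 to 44525952) at 1.88, 1.86 and 1.49 against 9.64, 8.07 and 7.17. The falls were 1.82, 1.76 and 1.75, and 2.44, 1.64 and 1.69 against the other control. All 3 lie on the plus strand. The libraries were strand-specific by the labels, but the strand setting of the counting is not given, so reads of the antisense pair cannot be told apart from reads of TSPEAR itself with certainty. Another 4 rows among the largest falls, FP236383.2, FP236383.3, FP671120.3 and FP671120.4, lie in ribosomal RNA repeats and rested on control replicate 2. FP671120.4 was at 46.1, 47.4 and 26.7 FPKM against 61.4, 233 and 59.1, and its difference from the other control was 0.06.

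**Figure D2:**
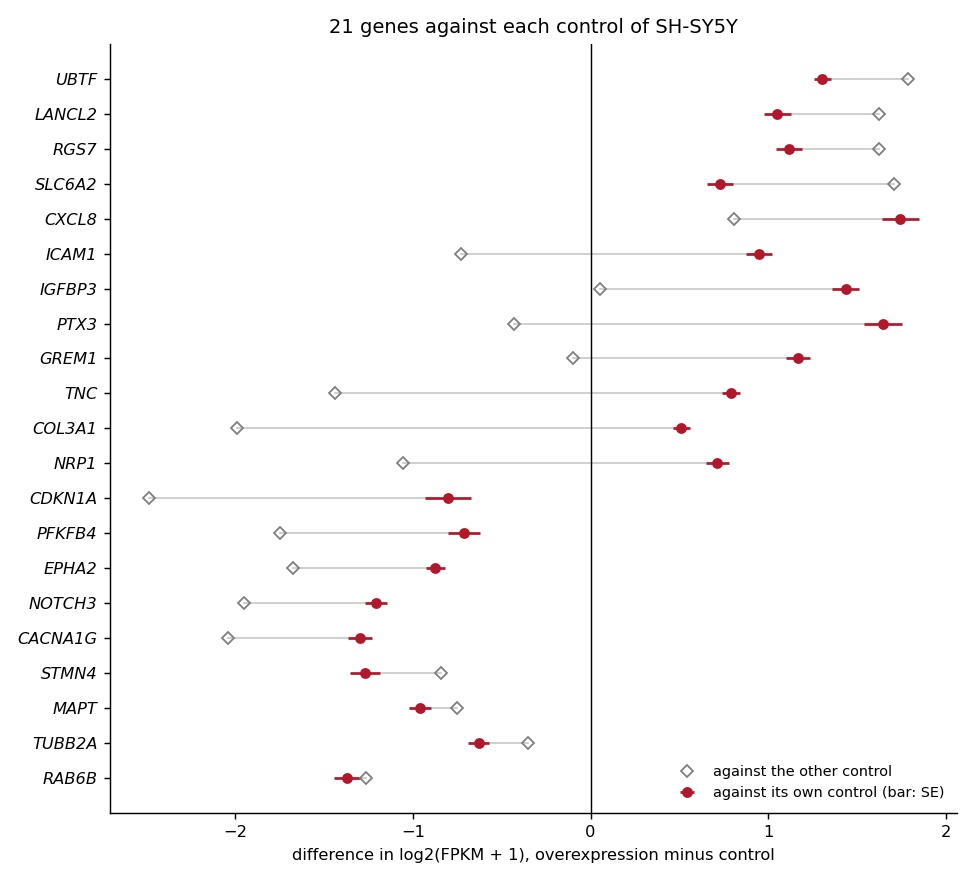
Difference in log2(FPKM + 1) of 21 genes between the overexpressing libraries and their own control (red points, bars are the SE of the limma fit, n = 3 against 3) and between the same libraries and the other control (open diamonds). UBTF, LANCL2 and RGS7 lie to the right and CACNA1G, NOTCH3 and RAB6B to the left for both controls, while PTX3, ICAM1, TNC, COL3A1, NRP1 and GREM1 lie on opposite sides of 0.

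Genes of DNA replication were higher. Of 35 tested genes of the G1/S transition and S phase, 25 rose and 1 fell, against 17.8% and 18.3% of all tested genes, and their median difference was 0.27. RRM2, the regulated subunit of ribonucleotide reductase, was at 28.8, 29.8 and 30.6 FPKM against 18.5, 18.9 and 19.8 and rose by 0.61 ± 0.05 (limma adjusted p = 2.0e-08). E2F8, a transcription factor of the S phase programme, rose by 0.66, and RFC3, a subunit of the clamp loader, rose by 0.46, from 28.7, 30.7 and 29.4 to 40.9, 41.1 and 41.2 FPKM. MCM5, part of the replicative helicase, was at 15, 15.8 and 16.5 FPKM against 11.9, 11.5 and 12.0 and rose by 0.39. The gene that fell was GINS4, by 0.25, while E2F1 (0.16), CDT1 (0.07) and CCNE1 (0.00) were not called. Against the other control 33 of the 35 rose and 1 fell, with a median of 0.67. The same genes were already higher in the overexpression control than in the other control, where 30 of 35 were higher and the median was 0.37. The order of the levels was overexpressing cells, own control, other control for RRM2, RFC3 and MCM5, with no overlap between libraries.

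E2F factors control this group of genes through short sites close to their start, so promoters of 3 called members are shown to place those letters. RefSeq promoter entries (GRCh38.p14) were matched for 6857 of the 13630 tested genes, and the 250 bases before the start were searched on both strands for TTTCCCGC and TTTGGCGC. Of the 24 replication genes with an entry, 10 held such a match (41.7%), against 1 of 28 G2/M genes (3.57%) and 3.39% of the promoters of all tested genes. A match is a description of the letters and says nothing of binding. Below, each promoter is written 5′ to 3′ on the strand of its gene, with the matches in capitals. RFC3 is at chr13:33817899-33818148, plus strand, MCM6, a helicase subunit, at chr2:135876444-135876693, minus strand, and TYMS, the thymidylate synthase, at chr18:657403-657652, plus strand. MCM6 was at 57.1, 56.5 and 57.9 FPKM against 44, 45.3 and 46.8 and rose by 0.33, and TYMS was at 77, 75 and 79.2 FPKM against 51.9, 54.9 and 53 and rose by 0.53. They were chosen for their matches and calls, after their values were seen. CDT1, GINS2, E2F1 and POLA1 also held a match and were not called.
RFC3: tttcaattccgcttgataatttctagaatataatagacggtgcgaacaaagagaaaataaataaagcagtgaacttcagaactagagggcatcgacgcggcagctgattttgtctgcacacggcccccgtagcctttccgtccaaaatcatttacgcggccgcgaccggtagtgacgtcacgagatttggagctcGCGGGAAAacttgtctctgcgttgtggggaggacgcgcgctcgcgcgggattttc
MCM6: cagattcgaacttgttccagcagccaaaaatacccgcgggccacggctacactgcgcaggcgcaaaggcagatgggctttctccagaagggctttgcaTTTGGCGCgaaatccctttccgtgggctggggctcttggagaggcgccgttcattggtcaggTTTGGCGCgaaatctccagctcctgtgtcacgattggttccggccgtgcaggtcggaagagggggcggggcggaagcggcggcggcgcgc
TYMS: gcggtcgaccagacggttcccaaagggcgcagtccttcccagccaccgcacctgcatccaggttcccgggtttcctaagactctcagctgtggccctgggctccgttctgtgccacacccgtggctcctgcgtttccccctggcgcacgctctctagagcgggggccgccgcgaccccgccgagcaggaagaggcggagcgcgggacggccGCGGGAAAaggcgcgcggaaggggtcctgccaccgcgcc

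Mitotic genes moved less. Of 40 tested G2/M genes 13 rose and 1 (CDC25C) fell, with a median of 0.08. AURKA, a mitotic kinase, rose by 0.42, CCNA2 by 0.34, BIRC5 by 0.33 and KIF11, a spindle motor, by 0.26. The proliferation marker MKI67 had a difference of 0.01 and TOP2A of -0.12, and neither was called. Compared with the other control 14 rose and 12 fell. The count of 13 was 8 without overexpression replicate 3, 9 without control replicate 1 and 9 without control replicate 2. Of the 4 replication-dependent histone genes tested, HIST1H2BD fell by 0.83 and none rose (none rose and 1 fell against the other control).

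Targets of MYC, most of them factors of ribosome assembly, rose together. MYC binds E-box sequences and is best known in growing cells for driving nucleolar and biosynthetic genes. Of 30 tested target genes 21 rose and 1 (ODC1) fell, with a median of 0.28 (25 and 1 against the other control, median 0.58). The overexpression control was again above the other control, in 20 of the 30 genes, with a median of 0.26. PPRC1, a coactivator related to PGC-1, was at 11.6, 12.3 and 11.8 FPKM against 7.39, 7 and 7.93 and rose by 0.61. DDX18, a nucleolar helicase, rose by 0.43, WDR43, a factor of the small subunit processome, by 0.42, and NCL, the nucleolar protein nucleolin, by 0.32, from 106, 110 and 109 to 134, 133 and 140 FPKM. MYC was at 16.2, 15.5 and 16.4 FPKM against 13.8, 12.8 and 13.7, a rise of 0.24 ± 0.06 (limma adjusted p = 0.0057, and 0.072 with a pseudocount of 0.1), and was at 8.93, 8.48 and 8.19 FPKM in the other control. MYCN was low in this line, at 3.54, 3.45 and 3.72 against 3.10, 2.86 and 2.74 FPKM, and its difference of 0.23 was not called (limma adjusted p = 0.13). The exact E-box letters CACGTG lay in the 250 bases before the start of 4 of the 18 target genes with a promoter entry, 22.2%, against 9.31% of the promoters of all tested genes. Of 76 genes of cytosolic ribosomal proteins, none was called in either direction by limma, 0 were higher and 0 lower at an unadjusted p under 0.05, and their median was -0.03, while none rose and 10 fell against the other control.

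Inside the mitochondrion, few genes of the respiratory chain were called against the own control. Of the 36 nuclear genes of complex I other than NDUFS6, 4 rose and none fell, 11.1% against the background of 17.8%, and the median was 0.09. Compared with the other control 12 of the 36 rose and 1 fell, with a median of 0.14. Without overexpression replicate 3 or control replicate 1 or 3, only 2 rose against the own control. The 4 were NDUFA9 (by 0.23), NDUFS3 (by 0.23), NDUFB4 (by 0.22) and NDUFS1 (by 0.16). NDUFS1, the largest subunit and a carrier of iron-sulfur clusters, was at 9.83, 9.66 and 9.49 FPKM against 8.65, 8.16 and 8.86. Of the 18 assembly factors, ACAD9 rose by 0.18, TMEM70 rose by 0.22 and NDUFAF3 fell by 0.30 (6 rose and none fell against the other control). Without overexpression replicate 3 or control replicate 2 or 3 no assembly factor rose, and without overexpression replicate 2 or control replicate 1 only 1 did. The fall was lost without overexpression replicate 1 or 2 or control replicate 2 or 3. Several of these small calls were lost under other settings: NDUFB4 and NDUFAF3 were not called against the other control, and TMEM70 and NDUFB4 were not called once a trend with GC content was subtracted. Of 38 nuclear subunits of complexes II to V, only SDHD was called, higher by 0.18, and its difference from the other control was -0.04. That call was lost without overexpression replicate 1 or 3 or control replicate 1 or 2, and 4 of the 38 rose and 2 fell against the other control.

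Of the 13 protein genes of mitochondrial DNA, 4 fell and 1 rose, with a median of -0.08, whereas 5 rose and 5 fell against the other control, with a median of 0.14. Without overexpression replicate 2 or 3 or control replicate 1 or 2, only 2 fell, and without control replicate 1 none rose. MT-ND4 was at 4505, 4176 and 4091 FPKM against 5583, 5529 and 5297 and fell by 0.36, MT-CO1 fell by 0.29, and MT-ND1 was at 3203, 3066 and 3079 FPKM against 2718, 2862 and 2806 and rose by 0.16. MT-ND4 and MT-CO1 fell by 0.54 and 0.43 against the other control, and MT-ND1 rose by 0.33. Genes that make and keep mitochondrial proteins had more rises than falls. Of 77 mitochondrial ribosomal protein genes 18 rose and none fell (23.4%, against 17.8% of all tested genes, median 0.11), led by MRPL54, which was at 17.4, 17.1 and 17.6 FPKM against 9.94, 10.3 and 9.66 and rose by 0.75. This count was 9 without overexpression replicate 3, 11 without control replicate 2, 11 without control replicate 3 and 42 against the other control, where 5 fell. The overexpression control was itself higher than the other control in 19 of the 77 and lower in 5, with a median of 0.11. Of 18 genes of mitochondrial DNA transcription and biogenesis 7 rose, among them MTERF3 (by 0.48), TFAM (by 0.30), which packages and transcribes mitochondrial DNA, and MGME1 (by 0.27), and POLG fell by 0.21, a call lost without overexpression replicate 1 or control replicate 3 (9 rose and 3 fell against the other control). Of 15 mitochondrial chaperones and proteases 6 rose and none fell (12 and none against the other control), among them ATF5, a factor of the mitochondrial stress response (by 0.58), DNAJA3 (by 0.31), and the inner membrane protease subunits AFG3L2 (by 0.29) and SPG7 (by 0.21). ATF4, which drives the integrated stress response, was at 29.3, 29.5 and 33.8 against 34.3, 33.1 and 36.7 FPKM and was not called (-0.16, limma adjusted p = 0.075), and DDIT3 was not called either (-0.04). Among 32 tested ATF4 targets 5 rose, including the amino acid transporters SLC7A5 (by 0.42) and SLC1A5 (by 0.36), and 10 fell, including ATF3 (by 0.98) and VEGFA (by 0.36), while 7 rose and 15 fell against the other control.

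**Figure D3:**
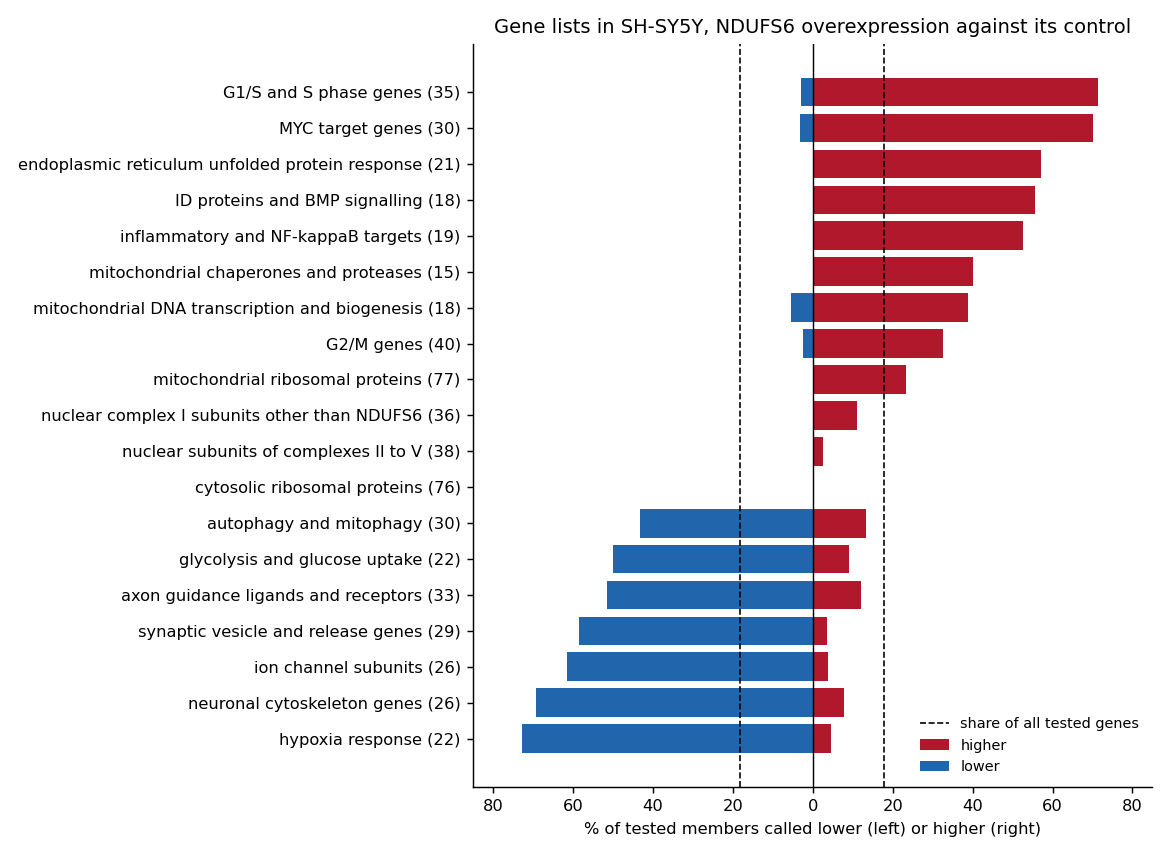
Share of the tested members of 19 gene lists that were called higher (red, to the right) or lower (blue, to the left) in overexpressing SH-SY5Y cells against their own control; the number of tested members is in brackets and the dashed lines are the shares of all tested genes, 17.8% and 18.3%. G1/S and MYC target genes reach 71.4% and 70.0% higher, hypoxia response and neuronal cytoskeleton genes 72.7% and 69.2% lower, and nuclear subunits of complexes II to V and cytosolic ribosomal proteins stay near 0.

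CDKN1A, the cell cycle inhibitor p21, was at 7.45, 8.03 and 7.60 FPKM against 16.2, 13.1 and 13.3 and fell by 0.80 ± 0.13 (SE, limma adjusted p = 7.2e-05). The other control lay far above both groups, at 51.0, 47.0 and 45.5 FPKM, and the 3 groups did not overlap.

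Genes of the hypoxia response and of glycolysis were lower. Hypoxia-inducible factors switch on glycolytic enzymes, angiogenic factors and mitophagy receptors when oxygen is short, and their degradation needs oxygen and 2-oxoglutarate. Of 22 tested hypoxia response genes 16 fell and 1 rose, with a median of -0.33. BNIP3, a receptor for mitophagy, was at 11.9, 12.2 and 11.9 FPKM against 17.2, 16.8 and 17.3 and fell by 0.48 ± 0.05 (limma adjusted p = 1.9e-07). Its relative BNIP3L fell by 0.60, from 30.3, 30.3 and 30.9 to 19.7, 20 and 19.5 FPKM, PFKFB4, which makes the activator of phosphofructokinase, fell by 0.71, and P4HA2, a collagen prolyl hydroxylase, by 0.45. VEGFA was at 5.04, 4.79 and 4.74 FPKM against 6.74, 6.28 and 6.49. The member that rose was SLC2A1, the glucose transporter GLUT1, by 0.20.

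Of 22 tested genes of glycolysis and glucose uptake, 11 fell and 2 rose, with a median of -0.19. HK1, the main hexokinase of neurons, was at 17.7, 17.7 and 18.9 FPKM against 25.4, 25.4 and 26.0 and fell by 0.48. ENO2, the neuronal enolase, fell by 0.55 and PFKP, a phosphofructokinase, by 0.43. LDHA fell by 0.24, while the enzymes GAPDH (-0.10), PKM (0.03) and ENO1 were not called. SLC16A1, a lactate and pyruvate transporter, rose by 0.37. The 2 lists share PFKFB4, ALDOC, PDK1, HK2, PFKFB3 and SLC2A1. Against the other control 20 of the 22 hypoxia genes and 15 of the 22 glycolysis genes fell and 2 of each rose, with medians of -0.87 and -0.39. The overexpression control was itself lower than the other control in 16 and 10 of them (medians -0.57 and -0.11).

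Autophagy genes shared in the fall in part. Of 30 tested genes 13 fell and 4 rose, with a median of -0.11 (15 and 6 against the other control). GABARAPL1, a protein that coats autophagosomes, was at 1.90, 2.38 and 1.81 FPKM against 5.42, 4.42 and 4.24 and fell by 0.91, and CALCOCO2, a receptor for bacteria and mitochondria marked for removal, fell by 0.51. Of 7 tested genes of TXNIP and its arrestin-domain relatives, 2 fell and none rose, ARRDC3 by 0.86 and ARRDC4 by 0.36 (3 fell and 1 rose against the other control). Of 16 heat shock genes 6 fell, among them HSPB1 (by 0.71), BAG3 (by 0.66) and HSPA2 (by 0.50), and 3 rose, among them DNAJA1 (by 0.45), and 7 fell and 5 rose against the other control.

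Most neuronal cytoskeleton genes were lower than in the own control, whereas more rose than fell against the other control. Of 26 tested neuronal cytoskeleton genes 18 fell and 2 rose, with a median of -0.28. MAPT, which encodes the microtubule-associated protein tau, was at 2.39, 2.70 and 2.59 FPKM against 6.21, 6.23 and 5.36 and fell by 0.96 ± 0.06 (limma adjusted p = 8.1e-10). STMN4, a stathmin that destabilises microtubules, fell by 1.27, NEFL, the light neurofilament, fell by 0.70, from 45.4, 47.0 and 46.1 to 28.1, 27.3 and 28.5 FPKM, and TUBB2A, a beta tubulin, by 0.63. NEFM fell by 0.15, a call lost without overexpression replicate 1 or 2 or without control replicate 2 or 3, and NEFH and STMN3 rose, by 0.48 and 0.26 (only 1 rose without overexpression replicate 3). The 6 falls of GAP43, DCX, TUBB3, STMN4, MAPT and NEFL did not all hold against the other control: STMN4 (-0.84), MAPT (-0.75) and NEFL (-0.31) were still lower, while GAP43 (-0.09), DCX (0.10) and TUBB3 (0.14) were not called. Over the list 7 fell and 10 rose against the other control, with a median of 0.08, and 21 of the 26 genes were higher in the overexpression control than in the other control.

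Of 29 tested synaptic vesicle and release genes 17 fell and 1 rose, with a median of -0.24. RAB3A, the GTPase of synaptic vesicles, was at 5.76, 7.23 and 5.96 FPKM against 13.2, 15.4 and 14.3 and fell by 1.07, RAB3B fell by 0.89 and the endocytic GTPase DNM1 by 0.44. These 3 also fell against the other control, by 1.51, 1.28 and 0.44. UNC13A, which primes vesicles for release, was at 9.75, 9.51 and 9.62 FPKM against 14.5, 13.5 and 13.2 and fell by 0.47, but differed by -0.01 from the other control. Over the list 8 rose and 13 fell against that control, with a median of -0.01. Of 26 tested ion channel subunits 16 fell and 1 rose, with a median of -0.27. After CACNA1G, the potassium channels KCNH6 (by 0.73) and KCNN1 (by 0.66) and the N-type calcium channel subunit CACNA1B (by 0.66) fell, and all 3 fell also against the other control, by 0.72, 0.72 and 0.25. Compared with the other control 15 of the 26 fell and 5 rose.

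Genes of catecholamine handling and dense-core granules went their own ways. SLC6A2, the noradrenaline transporter, was at 40.7, 40.9 and 41.1 FPKM against 23.0, 25.5 and 24.4 and rose by 0.73 ± 0.08 (limma adjusted p = 3.3e-07). The other control was at 11.2, 12.4 and 11.9 FPKM. CYB561, which supplies electrons to dopamine beta-hydroxylase inside the granule, rose by 0.58, and the granins CHGA and CHGB rose by 0.50 and 0.45, CHGA to 323, 301 and 336 FPKM from 217, 232 and 228. In the other control CHGA was at 63.1, 67.4 and 64.5 FPKM. The overexpression control was above the other control by 1.03 for CYB561, 1.78 for CHGA and 1.19 for CHGB, more than these rises. The monoamine oxidases of the outer mitochondrial membrane fell, MAOA by 0.47 and MAOB by 0.55. Over the lists, 4 of 11 catecholamine genes rose and 2 fell (7 and 2 against the other control), and 4 of 15 granule genes rose and 4 fell (4 and 7). Only 2 catecholamine genes rose without overexpression replicate 1 or 3 or control replicate 3, and only 2 granule genes fell without overexpression replicate 3. Of 23 tested adrenergic transcription factors 6 rose, led by LMO3 (by 0.46) and TFAP2B (by 0.41, to 109, 112 and 106 FPKM from 80.8, 82.0 and 82.5), and 6 fell. Compared with the other control 16 of the 23 rose and 3 fell, with medians of 0.35 there and 0.04 against the own control. Among the falls, PHOX2A was at 96.2, 94.7 and 108 FPKM against 142, 149 and 140 and fell by 0.52, and by 0.86 against the other control. VIM, a marker of the mesenchymal state, was at 37.7, 38.3 and 39.3 against 35.5, 36.6 and 37.3 FPKM and was not called, while the other control held 97.7, 93.2 and 98.2 FPKM. Of 15 tested mesenchymal identity genes 2 rose and 5 fell, with a median of 0.00, but 1 rose and 12 fell against the other control, with a median of -0.67. Without control replicate 1 only 3 fell, and 1 rose without overexpression replicate 1 or 2 or control replicate 1 or 3.

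Several signalling receptors were lower. Of 33 tested axon guidance genes 17 fell and 4 rose, with a median of -0.22 (7 rose and 21 fell against the other control). EPHA2, an ephrin receptor, was at 2.93, 3.22 and 3.28 FPKM against 6.94, 6.68 and 6.16 and fell by 0.87, SEMA6C, a transmembrane semaphorin, fell by 0.85 and PLXNA3, a semaphorin receptor, by 0.44. NRP1, a co-receptor of semaphorins and VEGF, rose by 0.71, but its difference from the other control was -1.05. Of 23 WNT and NOTCH genes 11 fell and 3 rose (12 and 5 against the other control), and beside NOTCH3 the Notch ligand JAG2 fell by 0.77, the WNT antagonists SFRP1 and DKK1 by 0.77 and 0.72, and NOTCH2 by 0.52. Of 14 growth factor receptors 7 fell and 2 rose (8 and 2 against the other control), with NGFR, the low-affinity neurotrophin receptor, down by 1.01, at 0.629, 0.571 and 0.660 FPKM against 2.19, 2.56 and 2.06. KIT fell by 0.88, FGFR4 by 0.68 and INSR by 0.34. Only 1 receptor rose without overexpression replicate 1 or 2 or control replicate 1 or 2. Of 10 tested HOX genes 5 fell and none rose, and all 5 belong to the HOXD cluster. HOXD10 was at 2.03, 2.21 and 2.24 FPKM against 4.43, 5.23 and 4.52 and fell by 0.86, HOXD8 by 0.56, HOXD4 by 0.63, HOXD9 by 0.46 and HOXD13 by 0.39. Over the 10 genes 5 fell and 1 rose against the other control.

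Inflammatory genes were higher than in the own control. NF-kappaB is held in the cytosol by inhibitors and, once freed, switches on chemokines, adhesion molecules and its own feedback inhibitors. Of 19 tested genes of this list 10 rose and none fell, with a median of 0.32. ICAM1, an adhesion molecule for leukocytes, was at 4.03, 4.57 and 3.49 FPKM against 1.67, 1.54 and 1.58 and rose by 0.95 ± 0.07 (limma adjusted p = 9.4e-09). BIRC3, an inhibitor of apoptosis, was at 2.26, 2.30 and 2.05 FPKM against 0.936, 0.870 and 0.820 and rose by 0.77, and NFKB1, the p50 subunit, rose by 0.51, from 2.73, 2.91 and 3.05 to 4.50, 4.74 and 4.45 FPKM. NFKBIA, a feedback inhibitor, was not called (0.17). Against the other control 6 of the 19 rose and 7 fell, with a median of 0.00. CXCL8 (0.81), NFKB1 (0.48) and BIRC3 (0.35) stayed higher there, while ICAM1 was lower, with a difference of -0.73. In the overexpression control 12 of the 19 genes were lower than in the other control, and none was higher. Of 8 tested interferon response genes none rose and 2 fell (1 without overexpression replicate 1 or 2 or control replicate 2), and none rose and 5 fell against the other control. Of 8 tested antigen presentation genes HLA-E fell by 0.59, and 7 fell against the other control.

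The kappaB letters are shown for the pair of called members that held them. GGAANTTCC, searched on both strands in the 250 bases before the start, was found in 4 of the 8 list members with a promoter entry (50%) and in 0.846% of the promoters of all tested genes. The 4 were CXCL8, ICAM1, NFKBIA and REL, of which the last 2 were not called. The window of CXCL8 is chr4:73740319-73740568, plus strand, and that of ICAM1 is chr19:10270870-10271119, plus strand. The match, in capitals, begins 91 bases before the start of CXCL8 and 186 bases before that of ICAM1.
CXCL8: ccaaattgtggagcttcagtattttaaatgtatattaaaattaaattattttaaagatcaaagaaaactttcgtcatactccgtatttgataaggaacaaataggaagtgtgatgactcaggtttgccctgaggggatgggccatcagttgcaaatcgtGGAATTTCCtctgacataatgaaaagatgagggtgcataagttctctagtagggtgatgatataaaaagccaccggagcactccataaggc
ICAM1: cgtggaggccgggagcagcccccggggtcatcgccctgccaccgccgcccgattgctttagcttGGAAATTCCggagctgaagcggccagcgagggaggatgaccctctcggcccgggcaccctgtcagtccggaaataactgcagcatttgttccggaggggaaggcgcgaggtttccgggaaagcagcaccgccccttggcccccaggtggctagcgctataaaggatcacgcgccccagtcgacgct

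Genes of bone morphogenetic protein signalling showed the same dependence on the control. Of 18 tested genes 10 rose and none fell, with a median of 0.27. SMAD9, a transducer of these signals, was at 44.9, 43.8 and 41.3 FPKM against 22.4, 23.3 and 24.8 and rose by 0.86 ± 0.07 (limma adjusted p = 7.5e-09), and ID3, a target of the pathway that blocks differentiation factors, was at 24.9, 26.8 and 27.9 FPKM against 16.5, 16.7 and 17.3 and rose by 0.63. Compared with the other control SMAD9 and ID3 stayed higher, by 0.57 and 0.67, whereas the inhibitory SMAD6 rose by 0.61 against its own control and had a difference of -0.48 from the other. Over the list 6 rose and 4 fell against the other control, and 1 fell against the own control without its replicate 2.

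Extracellular matrix genes split. Of 28 tested genes 9 rose and 6 fell (3 without control replicate 1), with a median of 0.02. TNC, an adhesion-modulating matrix protein, was at 14.5, 13.9 and 12.8 FPKM against 7.48, 7.40 and 7.61 and rose by 0.79, THBS1 rose by 0.75 and COL3A1, a fibrillar collagen, by 0.51, while COL6A2 fell by 0.45. The other control was far higher, with TNC at 39.1, 39.5 and 38.1 FPKM and COL3A1 at 72.5, 71.7 and 70.8, and 27 of the 28 genes were lower than in it. The YAP targets CYR61 and ANKRD1 rose by 0.90 and 1.06, with differences of -1.56 and -0.19 from the other control. The 14 fibroblast and stroma markers, of which 11 were tested (2 rose and 3 fell, and none rose and 9 fell against the other control), summed to 77.6 to 79.7 FPKM in the overexpressing libraries, 73.8 to 78.6 in their controls and 169 to 174 in the other controls. The part of such cells or states in these differences was not tested.

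Genes of the unfolded protein response, which relieves the endoplasmic reticulum of misfolded proteins, had more rises than falls against both controls. Of 21 tested genes of the unfolded protein response 12 rose and none fell, with a median of 0.24, and 12 rose and 2 fell against the other control, with a median of 0.30. Between the 2 controls the median difference was 0.02, with 4 genes higher and 1 lower in the overexpression control. HSPA5, the main chaperone BiP, was at 126, 121 and 129 FPKM against 85.9, 92.5 and 91.4 and rose by 0.47 ± 0.05 (limma adjusted p = 4.4e-07). It was also higher in the overexpression control than in the other control, by 0.36, and DERL1 was by 0.16. HERPUD1, which serves the degradation of misfolded proteins, rose by 0.43, XBP1, a transcription factor of the response, by 0.33 and DERL1, a channel component of that degradation, by 0.26.

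Genes of cholesterol synthesis and uptake moved in both directions. Of 23 tested genes 7 rose and 7 fell (8 and 7 against the other control). SQLE, which makes squalene epoxide, was at 18.0, 15.7 and 17.4 FPKM against 10.4, 10.8 and 10.8 and rose by 0.63, and HMGCS1, an early enzyme of the pathway, rose by 0.50. TM7SF2, a late sterol reductase, fell by 0.67, and SREBF2, a transcription factor that drives the pathway, by 0.38. SQLE and HMGCS1 were also higher than in the other control, by 0.54 and 0.18. Among iron genes, TFRC, the transferrin receptor, was at 32.3, 31.5 and 30.3 FPKM against 19.8, 19.4 and 21.4 and rose by 0.61, while ACO1, the cytosolic aconitase that doubles as an iron-sensing RNA-binding protein, was at 2.61, 2.57 and 2.68 FPKM against 4.25, 4.16 and 4.57 and fell by 0.56. Both moved the same way against the other control (1.02 and -1.08). Of 21 genes of the tricarboxylic acid cycle list 6 rose, among them IDH3B (by 0.32), and 5 fell, among them OGDH (by 0.33) and DLST (by 0.18), and 5 rose and 6 fell against the other control. This list also holds the cytosolic ACO1, which is counted among its falls and in the iron list too. The 6 rises were 2 without overexpression replicate 2 or 3 or control replicate 1. In fatty acid metabolism ACACA, which commits carbon to synthesis, fell by 0.54 and HADHA, of the beta-oxidation complex, by 0.24, while the desaturase FADS2 rose by 0.34. Of 21 tested NRF2 targets and regulators 3 rose and 3 fell, with a median of -0.05, but 1 rose and 14 fell against the other control, with a median of -0.25. None fell without overexpression replicate 1, and 1 fell without overexpression replicate 2 or control replicate 1 or 2. KEAP1, the sensor that degrades NRF2, rose by 0.49 (0.81 against the other control), NQO1 rose by 0.49 but differed by -0.49 from the other control, and ABCC1, an export pump, fell by 0.19.

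Among regulators of apoptosis 8 of 24 rose and 5 fell (11 and 7 against the other control). BCL2 was at 8.77, 8.51 and 7.73 FPKM against 5.15, 5.63 and 5.53 and rose by 0.54, and CASP2 rose by 0.42. The BH3-only protein BMF was at 2.77, 3.01 and 2.90 FPKM against 6.55, 5.82 and 5.85 and fell by 0.86. In the insulin-like growth factor system IGF2BP3, an RNA-binding protein, rose by 0.46, and the binding proteins IGFBP4 and IGFBP5 fell by 0.58 and 0.49. Immediate early genes, which answer growth signals within minutes, rose in 6 of 23 cases and fell in 9 (6 and 14 against the other control). EGR1 was at 0.921, 1.08 and 0.895 FPKM against 2.21, 2.56 and 2.79 and fell by 0.84, and JUN fell by 0.44.

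The remaining lists moved in both directions against the own control or had few calls. Of 12 tested neuronal RNA-binding proteins 3 rose, with KHDRBS3 up by 0.60 and ELAVL2 by 0.22, and 3 fell, with NOVA2, a splicing regulator, down by 0.58 (5 rose and 2 fell against the other control, and 1 rose without control replicate 2). Of 11 integrins and cadherins 2 rose, CDH2 (the neural cadherin, by 0.37) and ITGAV (by 0.26), and 3 fell, led by ITGA9 (by 0.52), whereas 1 rose and 10 fell against the other control, and 1 rose without overexpression replicate 1. Of 12 imprinted genes 2 rose, DLK1 (by 0.42, and 1.20 against the other control) and H19 (by 0.26, but -0.33), and 4 fell, among them the cell cycle inhibitor CDKN1C (by 0.35), or 2 without overexpression replicate 1 (4 rose and 5 fell against the other control). Of 17 ferroptosis and iron genes 2 rose and 4 fell (3 and 9 against the other control), and 2 fell without overexpression replicate 1 or control replicate 3. Of 26 fatty acid genes 2 rose and 6 fell (4 and 10), and 1 rose without overexpression replicate 3 or control replicate 1 or 3. Of 12 genes of the insulin-like growth factor system 3 rose and 5 fell (3 and 7), and 3 fell without overexpression replicate 3 or control replicate 3. Of 11 YAP targets 4 rose and 3 fell, but none rose and 7 fell against the other control. Of 21 small nucleolar RNA host transcripts SNHG12 rose by 0.23, and SNHG1 and ZFAS1 fell by 0.17 and 0.19 (4 rose and 7 fell against the other control), and with single libraries left out 0 to 2 rose and 0 to 1 fell. None of the 3 tested S100 genes and not the only tested DLX gene was called by limma (1 S100 gene fell against the other control), and no SLFN gene passed the filter. Of 4 tested Schwann cell markers 1 rose (GFRA3, by 0.46) and 2 fell (NGFR and L1CAM, the latter by 0.50), 1 rose and 3 fell against the other control, and the list of 12 summed to 33.5 to 34.4 FPKM against 42.0 to 44.3 FPKM. Of the 8 endothelial markers, 1 was tested and it was not called, though it was lower than in the other control.

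The same construct in SK-N-BE(2) gave a different picture. There 4394 of 13629 genes were called (32.2%), 13.8% higher and 18.5% lower. The effect of overexpression differed between the lines, by the interaction term of the fit, in 5446 genes (40%), with a higher effect in SH-SY5Y in 20.8% and a lower one in 19.1%, and 247 of these differences were at least 2-fold (1.81%). Of the genes called in both lines, 230 were higher in both, 9.5% of the SH-SY5Y and 12.2% of the SK-N-BE(2) rises, and 302 were lower in both, 12.1% and 12% of the falls. A further 639 were higher in SH-SY5Y and lower in SK-N-BE(2), 26.4% of the SH-SY5Y rises and 25.4% of the SK-N-BE(2) falls, and 574 were lower in SH-SY5Y and higher in SK-N-BE(2) (23% and 30.6%). The 2 experiments share no library, but NDUFS6 reached unlike levels in them, as given above.

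The hypoxia, glycolysis and G1/S lists went opposite ways in the 2 lines, while others moved in 1 line and had few or mixed calls in the other. Of the 22 hypoxia genes 15 rose and none fell in SK-N-BE(2), with a median of 0.36 against -0.33 in SH-SY5Y, and for 17 the effect was significantly lower in SH-SY5Y. BNIP3 changed by -0.48 in SH-SY5Y and by 0.60 in SK-N-BE(2), and the difference of -1.08 had a limma adjusted p of 4.9e-10. Of the 22 glycolysis genes 19 rose and 1 fell in SK-N-BE(2), and 20 had a lower effect in SH-SY5Y. Of the 35 G1/S genes 2 rose and 13 fell in SK-N-BE(2), and 26 had a higher effect in SH-SY5Y. For cytosolic ribosomal proteins, of which none was called in SH-SY5Y, 73 of 76 rose in SK-N-BE(2), by a median of 0.31, and 56 had a lower effect in SH-SY5Y. The 26 neuronal cytoskeleton genes split in SK-N-BE(2), where 9 rose and 9 fell, with a median of 0.00. In SH-SY5Y 13 of them had a lower and 6 a higher effect. Among the members that rose in SK-N-BE(2), MAPT fell by 0.96 in SH-SY5Y and rose by 0.55 in SK-N-BE(2), and STMN4 fell by 1.27 and rose by 0.55. The unfolded protein response genes had a higher effect in SH-SY5Y in 9 of 21 cases and a lower effect in none. In SK-N-BE(2) 1 of them rose and 4 fell, with a median of -0.06, where 13.8% of all tested genes were higher and 18.5% lower.

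The knockdown in SH-SY5Y, with its own controls, is the opposite manipulation in the same line. The knockdown libraries held 3.11, 3.98 and 4.98 FPKM of NDUFS6, and 7924 of 13629 genes (58.1%) were called, 25.9% higher and 32.2% lower. More genes moved the same way in both manipulations than in opposite ways. Of the genes higher in the overexpressing cells, 1119 were also higher after knockdown, 46.2% of the overexpression rises and 31.7% of the knockdown rises, and 1364 were lower in both (54.8% and 31.1%). In opposite directions, 546 were higher with overexpression and lower with knockdown (22.6% and 12.4%), and 449 were lower with overexpression and higher with knockdown (18% and 12.7%). The difference between the effects was itself called in 6095 genes (44.7%).

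Among the genes that moved the same way were UBTF (1.31 with overexpression and 0.99 with knockdown), CXCL8 (1.75 and 2.28), LANCL2 (1.05 and 1.37), RAB6B (-1.37 and -1.52), KIF21B (-1.20 and -1.17) and STMN4 (-1.27 and -1.90). Among those that moved in opposite ways were RGS7 (1.12 and -1.19), SLC6A2 (0.73 and -1), E2F8 (0.66 and -0.66), FGL1 (0.68 and -0.87), DRGX (0.82 and -0.65) and AC136621.1 (0.68 and -0.73) as rises with overexpression, and ARL6IP5 (-0.87 and 1.07), CD9 (-0.78 and 1.20), SFRP1 (-0.77 and 1.41), CAP2 (-0.77 and 0.97), INSRR (-0.73 and 0.79) and EGR1 (-0.84 and 0.79) as falls. AC136621.1 overlaps SLC6A2 on the same strand, so the reads of these genes cannot be told apart with certainty. By list, replication genes moved in opposite ways (25 of 35 higher with overexpression, 29 of 35 lower with knockdown), as did the G2/M genes in part (13 of 40 higher, 40 of 40 lower). The hypoxia, glycolysis, neuronal cytoskeleton, synaptic and ion channel lists had more falls than rises in both manipulations, and the inflammatory, bone morphogenetic protein and unfolded protein response lists more rises than falls. For neuronal cytoskeleton genes the medians were -0.28 with overexpression and -1.38 with knockdown, and for inflammatory genes 0.32 and 0.64.

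**Figure D4:**
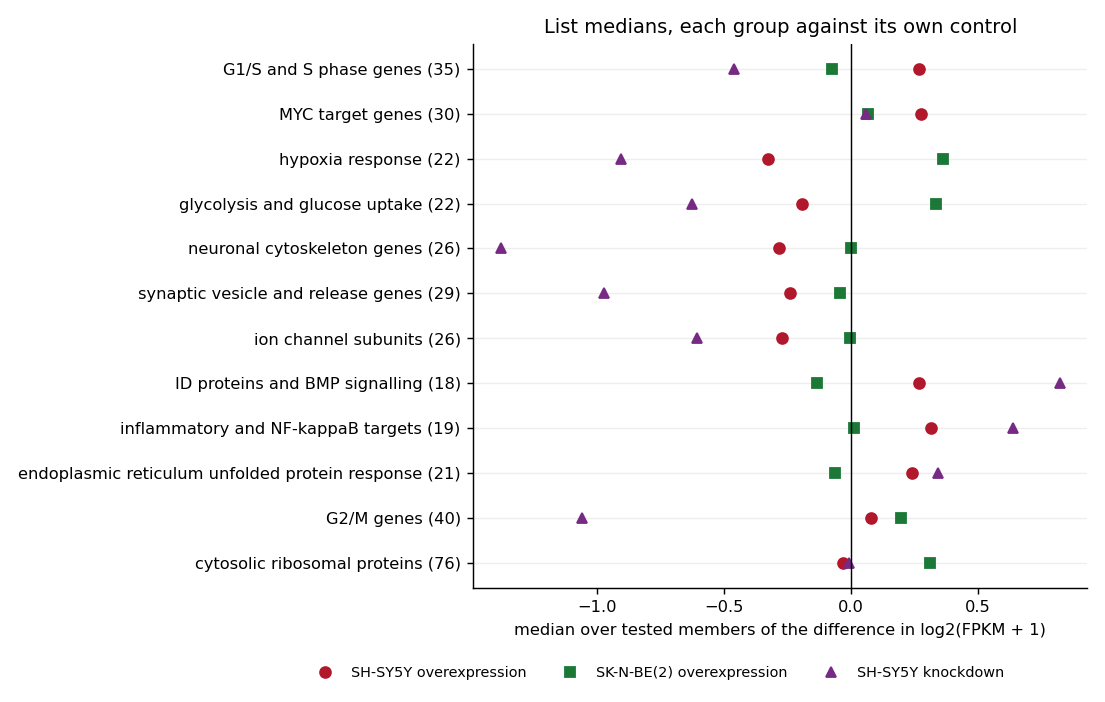
Median difference in log2(FPKM + 1) over the tested members of 12 gene lists for overexpression in SH-SY5Y (red circles), overexpression in SK-N-BE(2) (green squares) and knockdown in SH-SY5Y (purple triangles), each against its own control; the number of members is in brackets. Hypoxia response genes lie at -0.33, 0.36 and -0.90, and G1/S genes at 0.27, -0.07 and -0.46.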

How the data were processed

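RNA was extracted with TRIzol, made into strand-specific TruSeq libraries from 3 biological replicates per group and sequenced on an Illumina NovaSeq, per the labels' protocols. The authors deposited a table of FPKM for 60564 genes in 24 libraries. FastQC 0.11.2, STAR (version not given in the sources used here), StringTie 1.3.1c and hg38 are named, per the submitters' processing notes. How strand was treated in the counting is not stated there. FPKM carry no read depth, so no count test was run. The replicates' origin beyond the word biological is not stated, so a p-value reflects only how much these libraries vary. All labels give the same batch.

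Of the 60564 rows, 2796 have no symbol. Genes at 1 FPKM or more in at least 3 of the 6 libraries (13630) were fitted as log2(FPKM + 1) with limma 3.58.1 (R 4.3.3, trend and robust moderation) over all 24 libraries in 8 groups, with 16 residual degrees of freedom. Tests were two-sided, p-values were adjusted by Benjamini-Hochberg, and genes were called under 0.05. Tested on simulated data for the comparison with the own control (13630 genes), the fit recovered 52% of changes of 0.25 on the log2 scale, 94% of 0.5, 98% of 1 and 98% of 2, with 10 false calls. Only 50 genes per size were changed there, all at levels above the filter by a margin, and the noise was independent between libraries. No shift shared by the libraries of a group was simulated. The rates therefore do not carry over to the real comparison, where 36% of genes were called and the 2 controls differed in 37.2%.

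The experiment and the 56 gene lists were chosen with earlier results of these data known, so lists are given by counts and medians with no test of their own. Named genes were NDUFS6, the 15 largest called rises and falls without overlap between groups, the 10 largest each way against both controls, up to 4 called members of each list by adjusted p with further members named for their function, the 6 largest of each pattern with knockdown, the 6 smallest adjusted p between lines, and MYC, MYCN, CDKN1A, ATF4, DDIT3, VIM and NEFM. Some genes and 1 list are not reported here, and lists are counted without those genes. Gene positions are from GENCODE 29 on hg38. Alternatives were a pseudocount of 0.1, no filter, a mean of at least 5 FPKM, TPM and median-of-ratios scaling, mitochondrially encoded genes left out, the 6 or the 12 SH-SY5Y libraries alone, no trend or robust moderation, the other control, a replicate block, each library left out and, chosen after seeing the data, a GC trend subtracted.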

Additional observations from a re-analysis of the deposited data

Results flagged for a closer look

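The effect of overexpression differed between SH-SY5Y and SK-N-BE(2) in 5446 genes by the interaction term of the limma fit. NDUFS6 itself differed by 3.73, with log2 differences of 4.13 in SH-SY5Y and 0.39 in SK-N-BE(2). Among the genes with the smallest adjusted p of this term, IGFBP3 differed by 2.19 (1.44 and -0.75), CLK1, a kinase of splicing factors, by 1.61 (0.93 and -0.68), UBTF by 1.43 (1.31 and -0.12) and COL3A1 by 1.40 (0.51 and -0.89). In the other direction, CMBL, a hydrolase, differed by -1.72 (-0.56 and 1.16) and H1F0, a linker histone, by -1.52 (-1.03 and 0.49).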

How the results depend on the processing

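The counts of genes higher and lower stayed within 1.5 times their values of 2420 and 2491 under most alternatives. Restricting the test to a mean of at least 5 FPKM left 7220 genes, and with this smaller number tested 1126 were lower, 3338 differed between the lines, 1451 moved the same way in overexpression and knockdown and 663 moved in opposite ways. The number of genes changed at least 2-fold, 56 over all tested genes, was 19 under that restriction, 256 with a pseudocount of 0.1, 178 after TPM scaling and 481 against the other control. A pseudocount of 0.1 and TPM scaling give the added value less weight by construction. Against the other control 4152 genes were higher. Leaving out each library in turn gave 1948 to 2095 genes higher, 2086 to 2244 lower and 58 to 73 changed at least 2-fold. It gave 4885 to 5325 genes that differed between the lines, 2072 to 2217 that moved the same way with knockdown and 801 to 861 that moved in opposite ways. With the replicate number as a block, 5152 genes were called, 2534 higher and 2618 lower, but same-numbered libraries did not deviate together (correlations of 0.056, 0.013 and 0.022), so the numbers were not taken to pair the libraries. Of the 212 named genes, 27 had the opposite sign against the other control and a call in at least 1 of the 2 comparisons, and the cause was not tested: ACTA2 (-0.81), ANKRD1 (-0.19), CELF5 (0.0034), COL3A1 (-1.99), CYR61 (-1.56), FOSL2 (-0.67), FP236383.2 (0.070), FP236383.3 (0.071), FP671120.3 (0.070), FP671120.4 (0.056), GREM1 (-0.10), H19 (-0.33), ICAM1 (-0.73), NEFM (0.099), NFE2L2 (-0.15), NQO1 (-0.49), NRP1 (-1.05), PTX3 (-0.43), RTL1 (1.57), SAMD11 (-0.12), SCD (0.060), SDHD (-0.037), SLC3A2 (-0.011), SMAD6 (-0.48), THBS1 (-0.26), TNC (-1.44) and VIM (-1.30). ATF4 also changed sign, from -0.16 to 0.0064 against the other control, and was called against neither. List medians with the opposite sign there were those of subunits encoded by mitochondrial DNA (0.14), neuronal cytoskeleton genes (0.080) and neuronal RNA-binding proteins (0.088). Medians also changed sign for bone morphogenetic protein signalling (0.27 against the own and -0.03 against the other control) and extracellular matrix (0.02 and -1.10). The same held for integrins and cadherins (0.0036 and -0.44) and the tricarboxylic acid cycle (0.04 and -0.04). Small nucleolar RNA host transcripts (0.03 and -0.07) and complexes II to V (-0.01 and 0.06) did so as well. At a mean of at least 5 FPKM the median of the growth factor receptors was 0.022, over fewer genes. Only changes of sign are named here. Further list medians changed in size against the other control, at a mean of at least 5 FPKM, after TPM scaling, with a pseudocount of 0.1 and with a GC trend subtracted. Of the 212 named genes, 15 lost their call without overexpression replicate 1, 11 without replicate 2 and 13 without replicate 3. Without control replicates 1, 2 and 3, it was 9, 15 and 9. NEFM lost its call in 4 of these 6 fits. Read depth is not known, so no limit from counting could be given.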

Other observations

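Splicing factors were not among the gene lists and were looked at after their values were seen, so their counts are a description. Over all tested genes, 17.8% were higher and 18.3% lower against the own control, and 30.5% and 27.2% against the other control. Of 12 tested SRSF genes, which encode serine and arginine-rich splicing factors, 7 rose and 1 fell, with a median of 0.22, and 8 rose and none fell against the other control. SRSF1 was at 119, 117 and 116 FPKM against 79.8, 82.1 and 82.4 in the controls and rose by 0.52, and SRSF2 rose by 0.52 and SRSF3 by 0.44. Of 21 tested hnRNP genes, which encode proteins that bind nascent transcripts, 16 rose and none fell, with a median of 0.18 (18 and none against the other control). HNRNPR rose by 0.54, HNRNPM by 0.46 and HNRNPH1 by 0.45. The overexpression control was itself above the other control for SRSF1 (0.60), SRSF2 (0.58), SRSF3 (0.72), HNRNPR (0.15), HNRNPM (0.69) and HNRNPH1 (0.24). SRSF1, SRSF2, SRSF3, HNRNPM and HNRNPH1 also rose with knockdown, by 0.24, 0.40, 0.31, 0.42 and 0.33, whereas HNRNPR fell by 0.22. In SK-N-BE(2), 2 SRSF genes rose and 2 fell, and 3 hnRNP genes rose and 2 fell, where 13.8% of all tested genes were higher and 18.5% lower. CLK1, a kinase that phosphorylates SRSF proteins, was at 16.5, 16.3 and 16.5 FPKM against 8.23, 7.93 and 8.33, a rise of 0.93 that was 1.02 against the other control.

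Several abundant genes also moved, and were likewise chosen after their values were seen. ACTB, the cytoplasmic beta actin often used as a reference gene, was at 737, 730 and 783 FPKM against 399, 420 and 418 and rose by 0.86 (0.89 against the other control), and ACTG1 rose by 0.89 (0.45). H1F0, a linker histone of differentiated cells, was at 113, 113 and 118 FPKM against 239, 235 and 229 and fell by 1.03, and H1FX fell by 0.59.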
